A study of Homo sapiens with 9 samples.

Results

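Across 4 peak lists from FAIRE-seq of Jurkat cells, 140 of 40703 merged regions were CpG-island-like, intronic and distal (0.344%). Peaks of all lists that overlapped or touched were joined on the autosomes, X and Y. A region was kept when its mid-point lay inside a gene but outside every exon and more than 5 kb from every annotated transcription start site (TSS) of GENCODE release 44 on GRCh37 (Hg19). Its central 300 bp also had to hold over 50% GC and an observed to expected CpG ratio over 0.6, where the ratio divides the number of CG dinucleotides by the number that the C and G content alone would give. Of the 12084 intronic distal regions of any composition, the other 11944 missed at least 1 of these composition limits and are called CpG-poor below.

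FAIRE (formaldehyde-assisted isolation of regulatory elements) recovers DNA that is free of nucleosomes, and each list gives the peaks of 1 library against total input. Jurkat is a human T cell leukaemia line, here clone E6-1, a single transformed clone that serves as a model of T cells. By the labels, the lists came from non-stimulated cells pre-treated with DMSO (NS DMSO), cells pre-treated with DMSO, activated for 4 h by PMA (24 ng/mL) with calcium ionophore (1 μM) and rested for 1 day after the stimulus was withdrawn (SW DMSO), and the same states pre-treated with rottlerin at 15 μM, an inhibitor of protein kinase C (NS rottlerin and SW rottlerin). The published methods instead describe peak calling and pooling for the DMSO samples alone, and merging these 4 lists gave the region total stated there. The labels of the lists are in doubt for this reason. The label of NS DMSO was taken as given, and it was not tested. The lists are therefore named by their labels, the NS DMSO list is set against the other 3 counted together, and nothing is stated on rottlerin or on the SW state. The lists held between 18977 and 30409 peaks, with NS DMSO the shortest and SW rottlerin the longest. The sequencing depth is unknown from peak lists, so a region without a peak was not called at that library's depth. With 1 library per list there is no replicate error, and all intervals are 95% intervals that cover counting error only.

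CpG islands are stretches of DNA in which CG dinucleotides have been kept, whereas in most of the genome methylated cytosines in CG have been lost by deamination. Most islands lie at gene promoters, bind proteins with CXXC domains and are unmethylated in most cells. Islands inside genes, away from known promoters, can be starts of alternative transcripts or enhancers, and their methylation differs between cell types more than that of promoter islands.

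The sequences of the regions that lead each pattern of lists show what the rule selected. Each is the central 300 bp on the plus strand of GRCh37, with every CG dinucleotide in capitals. The 3 regions with the highest scores lay in introns of the lncRNA gene ENSG00000290199 (chr22:24256132-24256431, 27 CG), of RAI1, which encodes a dosage-sensitive nuclear protein (chr17:17655508-17655807, 35 CG), and of the lncRNA gene ENSG00000230490 (chr13:34116706-34117005, 35 CG), and each had a peak in all 4 lists.
ENSG00000290199: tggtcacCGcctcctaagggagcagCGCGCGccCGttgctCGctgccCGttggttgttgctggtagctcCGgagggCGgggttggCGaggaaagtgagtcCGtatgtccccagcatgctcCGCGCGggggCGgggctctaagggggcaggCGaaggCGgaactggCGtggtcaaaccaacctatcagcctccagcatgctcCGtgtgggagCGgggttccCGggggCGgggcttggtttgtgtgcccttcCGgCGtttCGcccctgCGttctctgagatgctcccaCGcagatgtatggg
RAI1: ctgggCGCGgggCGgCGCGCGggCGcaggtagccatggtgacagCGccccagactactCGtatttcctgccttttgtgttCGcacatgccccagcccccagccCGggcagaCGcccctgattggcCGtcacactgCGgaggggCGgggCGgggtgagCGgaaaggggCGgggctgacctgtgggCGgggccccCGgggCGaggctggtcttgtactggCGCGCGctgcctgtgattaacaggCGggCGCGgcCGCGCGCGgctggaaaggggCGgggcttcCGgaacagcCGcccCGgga
ENSG00000230490: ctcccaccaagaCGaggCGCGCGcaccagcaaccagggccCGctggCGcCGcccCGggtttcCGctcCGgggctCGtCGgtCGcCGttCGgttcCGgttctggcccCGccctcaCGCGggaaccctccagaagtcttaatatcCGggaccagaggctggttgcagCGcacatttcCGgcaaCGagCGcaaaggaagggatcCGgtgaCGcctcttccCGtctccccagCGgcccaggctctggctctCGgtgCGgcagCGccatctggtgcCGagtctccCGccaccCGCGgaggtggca
CG dinucleotides ran through most of the length of all 3 windows, in which the GC content was 66.7%, 73.7% and 70.0%.

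The regions with the highest scores among those with a peak in every list but NS DMSO lay in introns of GNG4, a G protein gamma subunit (chr1:235805435-235805734, 22 CG) and HDAC4, a class IIa histone deacetylase (chr2:240196917-240197216, 15 CG). They are shown as the leading examples of this pattern, and over all 140 regions the median GC content was 59.5% with and 59.7% without an NS DMSO peak and the median number of CG 20 and 19.
GNG4: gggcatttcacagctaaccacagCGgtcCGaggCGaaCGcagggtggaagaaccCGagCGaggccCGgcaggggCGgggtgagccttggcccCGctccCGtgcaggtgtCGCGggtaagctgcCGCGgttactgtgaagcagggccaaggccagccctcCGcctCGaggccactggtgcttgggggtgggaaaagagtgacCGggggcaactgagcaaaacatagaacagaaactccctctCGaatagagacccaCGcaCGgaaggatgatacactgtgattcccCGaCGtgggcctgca
HDAC4: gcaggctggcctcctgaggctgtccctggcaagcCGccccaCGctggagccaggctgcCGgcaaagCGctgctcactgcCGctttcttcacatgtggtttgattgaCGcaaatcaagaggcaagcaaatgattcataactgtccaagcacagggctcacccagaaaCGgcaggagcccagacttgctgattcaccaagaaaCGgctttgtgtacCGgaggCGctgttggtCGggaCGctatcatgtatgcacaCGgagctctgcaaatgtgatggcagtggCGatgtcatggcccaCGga
The HDAC4 window held the AP1 sequence TGANTCA, in which N is any base, at positions 129 and 187, counted from 1 at its first base. Both matches read TGATTCA.

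The region with the highest score in the NS DMSO list alone lay in SHANK2, a synaptic scaffold gene (chr11:70628666-70628965, 12 CG). The highest-scoring region with an AP1 sequence lay in the gene ENSG00000288637 (chr4:154170233-154170532, 19 CG), with the AP1 sequence, here TGAATCA, starting at position 44.
SHANK2: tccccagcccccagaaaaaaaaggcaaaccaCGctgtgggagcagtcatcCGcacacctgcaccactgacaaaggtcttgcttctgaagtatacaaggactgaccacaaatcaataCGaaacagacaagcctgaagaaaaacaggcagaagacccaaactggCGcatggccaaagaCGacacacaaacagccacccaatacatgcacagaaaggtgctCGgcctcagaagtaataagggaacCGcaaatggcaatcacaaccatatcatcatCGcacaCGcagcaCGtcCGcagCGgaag
ENSG00000288637: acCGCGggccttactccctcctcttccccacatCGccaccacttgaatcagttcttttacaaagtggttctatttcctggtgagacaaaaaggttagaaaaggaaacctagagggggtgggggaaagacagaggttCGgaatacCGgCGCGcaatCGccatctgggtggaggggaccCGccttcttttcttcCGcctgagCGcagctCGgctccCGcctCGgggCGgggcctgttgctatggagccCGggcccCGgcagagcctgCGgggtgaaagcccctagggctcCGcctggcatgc
The SHANK2 window, at 51.0% GC, lay close to the limit of the rule, and the ENSG00000288637 window had 61.3% GC.

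The composition of the 140 regions spanned the whole range above the limits. The GC content ran from 50.3% to 81.0% with a median of 59.7%, the CpG ratio from 0.601 to 1.20 with a median of 0.727, and the number of CG from 11 to 48 with a median of 19. The CpG-poor intronic distal regions had a median of 2 CG and a median GC content of 42.3%. At TSSs, the 7827 CpG-island-like regions with a mid-point within 1 kb of a start had more, with medians of 29 CG, 67.3% GC and a ratio of 0.875. These values describe what the rule chose. The CpG density was measured beyond the window as well, and it was lower on both sides. It was 7.67 and 7.66 CG per 100 bp in the bins on either side of the mid-point and 1.79 and 1.61 at nearly 2000 bp on either side, against 0.99 and 1.02 at that distance from the CpG-poor regions.

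**Figure D1:**
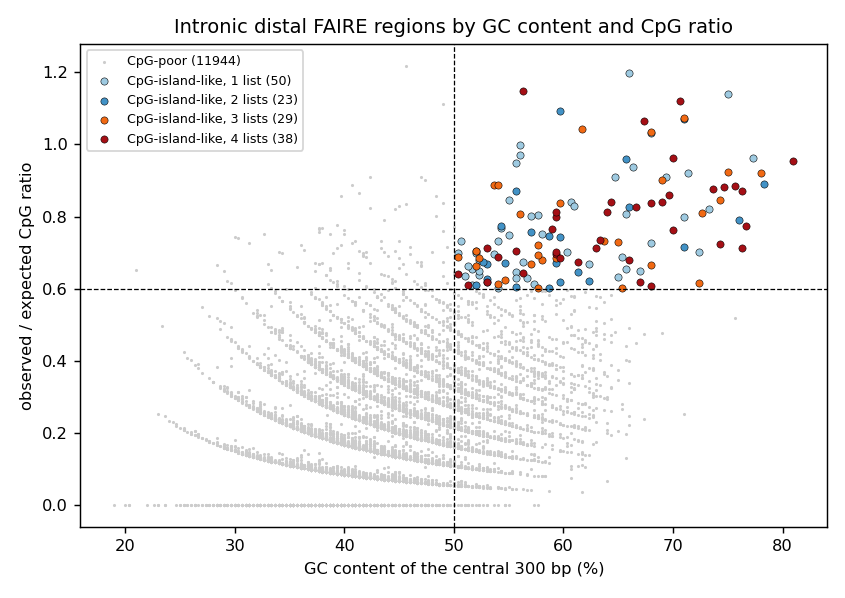
Each point is 1 of 12084 intronic distal regions, placed by the GC content (x axis, %) and the observed to expected CpG ratio (y axis) of its central 300 bp. Dashed lines mark the limits of 50% and 0.6, grey points are the 11944 CpG-poor regions, and the colour of the 140 others gives the number of lists with a peak. Regions in all 4 lists occur over the whole range, up to 81.0% GC.

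**Figure D2:**
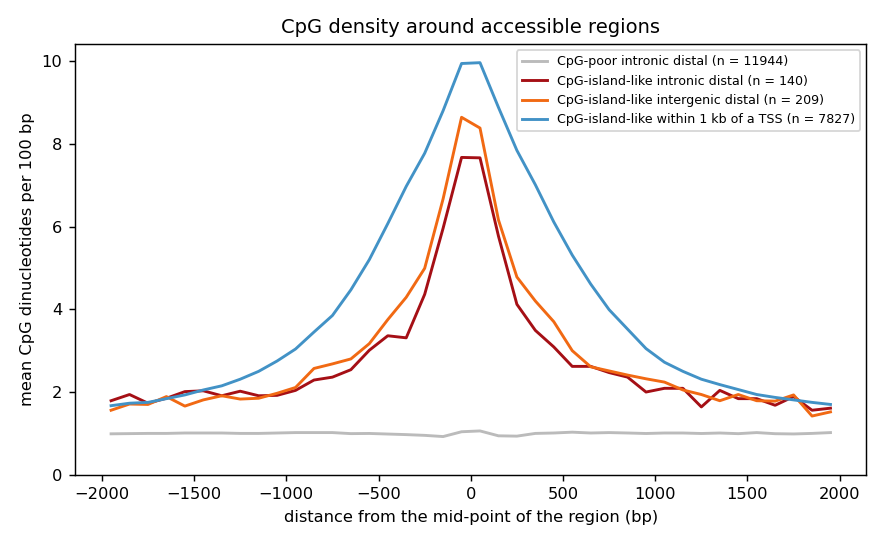
Mean number of CG dinucleotides per 100 bp (y axis) in bins of 100 bp by distance from the mid-point of the region (x axis, bp), for 4 classes of region. The intronic distal island-like regions peak at 7.67, below the 9.96 of the regions at TSSs, and stay above the flat line of the CpG-poor regions out to 2000 bp.

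Only some of the island-like stretches were long. The stretch around the mid-point in which every window of 300 bp met both composition limits had a median of 591.5 bp, against 1113 bp at TSSs. It reached 500 bp, the minimum in some definitions of a CpG island, in 85 of 140 regions (60.7%, 52.4 to 68.4). At TSSs the share was 95.2%, a difference of -34.5 percentage points (95% Newcombe interval -42.8 to -26.8). The CpG-island-like regions outside genes and over 5 kb from a TSS had a median stretch of 690 bp. Of these 75.1% reached 500 bp, and the difference of the 140 regions from them was -14.4 points (-24.3 to -4.47). The stretch reached 1000 bp in 21 of the 140 regions (15.0%, 10.0 to 21.8). The longest, 3269 bp, surrounded a region in BCOR, a partner of the repressor BCL6. In 55 of the 140 the stretch was under 500 bp, and the 140 are called island-like below.

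The word distal depends on the annotation. RefSeq gene starts, recognised by an exact match of 40 bases around the start, lay within 1 kb of the mid-point of 5 of the 140 regions (3.57%, 1.53 to 8.09), against 78 of the 11944 CpG-poor regions (0.653%), a difference of 2.92 points (0.876 to 7.44). The starts were those of HDAC4 itself, of the histone gene H4C6 at a region in ENSG00000291336, and of the uncharacterised genes LOC124904560 in GNG4, LOC124906002 in ATP6V1E2 and LOC107985687 in BCOR. Both the GNG4 and the HDAC4 region shown above are thus distal in GENCODE and lie at a gene start in RefSeq. The distance to the nearest GENCODE TSS ran from 5021 to 81047 bp with a median of 9574 bp. It was under 10 kb for 74 regions, and 7 regions lay over 50 kb away.

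A peak in the NS DMSO list was found at 70 of the 140 regions (50.0%, 41.8 to 58.2), so that the other 70 had no NS DMSO peak. Over all merged regions, 53.5% had no NS DMSO peak, which is close to the share of the island-like regions. The SW DMSO list held 76 of the 140 (54.3%), the NS rottlerin list 77 (55%) and the SW rottlerin list 112 (80%), against 49.3%, 58.4% and 74.5% of all regions. The order followed the lengths of the lists.

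Set against the CpG-poor regions of the same location, the island-like regions had an NS DMSO peak more often. Of the CpG-poor regions 62.5% (61.6 to 63.3) had no NS DMSO peak, and the difference was -12.5 points (-20.7 to -4.26). A peak in all 4 lists was found at 38 island-like regions (27.1%, 20.5 to 35.0) and at 14.8% of CpG-poor regions, a difference of 12.4 points (5.65 to 20.3), whereas the share over all regions was 26.6%. A peak in 1 list was found at 50 island-like regions (35.7%, 28.3 to 43.9) and at 47.5% of CpG-poor regions, a difference of -11.8 points (-19.3 to -3.56), with 38.8% over all regions. Peaks in 2 lists were found at 23 island-like regions (16.4%, against 20.4% of all regions) and in 3 lists at 29 (20.7%, against 14.1%). The share of island-like regions differed from that of CpG-poor regions in the same direction in each list, with differences of 13.5 points for SW DMSO (5.24 to 21.6), 4.87 for NS rottlerin (-3.45 to 12.9) and 11.7 for SW rottlerin (4.22 to 17.5). The interval for NS rottlerin included 0. With a TSS distance over 10 kb in place of 5 kb the difference in the share without an NS DMSO peak was -5.34 points (-17.4 to 5.89), and its interval included 0.

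The composition limits were also taken one at a time. Among intronic distal regions, 1803 had over 50% GC but a ratio of 0.6 or less. Of these 58.8% (56.5 to 61.0) had no NS DMSO peak, a difference of -8.79 points (-17.3 to -0.306) from the island-like regions, and 16.3% had a peak in all 4 lists, a difference of 10.9 points (3.98 to 19.0). The 116 regions with a ratio over 0.6 and 50% GC or less were nearer to the island-like regions. Of these 46.6% (37.7 to 55.6) had no NS DMSO peak, a difference of 3.45 points (-8.74 to 15.5), and 31.0% had a peak in all 4 lists, a difference of -3.89 points (-15.0 to 7.14). Both of these intervals included 0 and are wide.

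The intronic island-like regions were further from those at TSSs. Of the CpG-island-like regions within 1 kb of a TSS 25.1% had no NS DMSO peak, so the intronic island-like regions exceeded them by 24.9 points (16.7 to 33.1), and 66.5% had a peak in all 4 lists, a difference of -39.3 points (-46.1 to -31.3). The 209 CpG-island-like distal regions outside genes were closer. Of these 48.3% had no NS DMSO peak, a difference of 1.67 points (-8.92 to 12.2), and 35.4% had a peak in all 4 lists, a difference of -8.26 points (-17.7 to 1.76). Intervals of this width leave differences of several points undetectable.

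**Figure D3:**
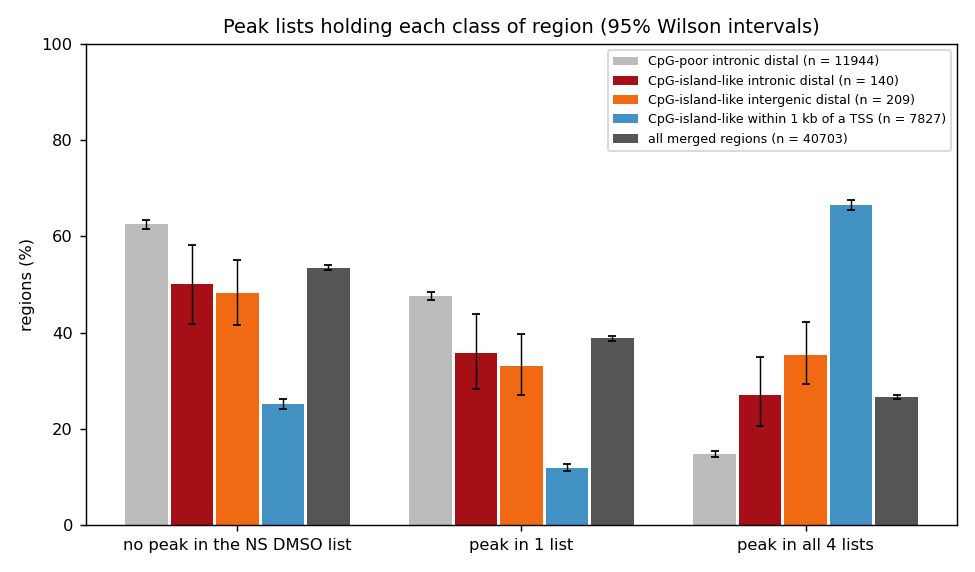
Share of regions (y axis, %) with no peak in the NS DMSO list, with a peak in 1 list and with a peak in all 4 lists, for 5 classes of region, with 95% Wilson intervals as error bars. The intronic distal island-like regions, at 50.0%, 35.7% and 27.1%, lie between the CpG-poor intronic regions and the island-like regions at TSSs in each group of bars, and close to the intergenic island-like regions.

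Peak scores move with these shares. The score of a peak is −log10 q multiplied by 10 and stripped of decimals, and that of a region is the highest of its peaks. The median was 52.5 for the island-like regions, 45 for CpG-poor intronic regions, 61 for the intergenic distal island-like regions, 105 for the island-like regions at TSSs and 54 for all regions. The island-like regions in 1 list had a median score of 30 and a median width of 203.5 bp, and those in all 4 lists had 101.5 and 501.5 bp. For all regions the corresponding scores were 31 and 119. A region in more lists takes its highest score and its joined width from more peaks, so both rise in part by construction. The shares without an NS DMSO peak were also compared within bands of this highest score, which carries the same dependence. In the bands from 10, 30 and 50 up, island-like regions differed from CpG-poor regions by -3.54 (-21.4 to 9.03), -7.28 (-23.9 to 6.25) and -4.81 points (-20.7 to 10.5). At scores of 80 and above, 6 of 39 island-like regions (15.4%, 7.25 to 29.7) and 34.7% of CpG-poor regions had no NS DMSO peak, a difference of -19.3 points (-27.7 to -4.86). These 6 lay in GNG4, HDAC4, XKR6, the lncRNA gene ENSG00000249738, MTUS2 and SMIM47. They are named here after their values were seen.

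Distance from a TSS moved with the number of lists among the island-like regions. Between 5 and 10 kb from a TSS 26 of 74 island-like regions (35.1%, 25.2 to 46.5) had a peak in all 4 lists, and beyond 10 kb 12 of 66 (18.2%, 10.7 to 29.1), a difference of 17 points (2.18 to 30.5). In CpG-poor regions the shares were 15.1% and 14.6%, a difference of 0.478 points (-0.88 to 1.88). GC content moved with it in the same way. Of the 66 island-like regions with 60% GC or more 36.4% had a peak in all 4 lists, and of the 74 with less 18.9%, a difference of 17.4 points (2.65 to 31.5), while the share with no NS DMSO peak was 50.0% in both. The divisions by distance and GC content were chosen after the values were seen, and distance and GC content were not separated from each other.

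The region with the highest score of all island-like regions lay in intron 3 of ENSG00000290199 on chromosome 22, an lncRNA gene (region 24255875 to 24256689). Its scores were 260 in NS DMSO, 160 in SW DMSO, 145 in NS rottlerin and 188 in SW rottlerin, so that NS DMSO was the highest. Its fold enrichment over input was 9.6, 7.38, 6.9 and 8.0 in the same order.

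RAI1, in its second intron on chromosome 17 (17655455 to 17655861), had scores of 162, 256, 192 and 223 in this order of lists, with NS DMSO the lowest. RAP1GAP, which switches off the small GTPase Rap1, showed the reverse at a region in its first intron on chromosome 1 (21985678 to 21986149), with 189, 126, 113 and 136. ENSG00000230490 on chromosome 13 had 209, 186, 240 and 229, a narrow spread for its level. The lists thus did not keep 1 order over these 4 regions.

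Among the others of the 10 highest, PXT1, a peroxisomal gene of the testis, had scores of 146, 113, 160 and 206. ZSWIM6 had 96, 144, 132 and 173, and CROCC, which encodes the ciliary rootlet protein rootletin, had 84, 99, 162 and 166. In both, NS DMSO was the lowest list. ZC3H18, an RNA-processing factor, had 163, 76, 134 and 71, and here NS DMSO was the highest. The gene ENSG00000249240 had 84, 120, 155 and 147, and FOXP4, a forkhead transcription factor, had 87, 90, 153 and 140. All 10 regions had a peak in all 4 lists.

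**Figure D4:**
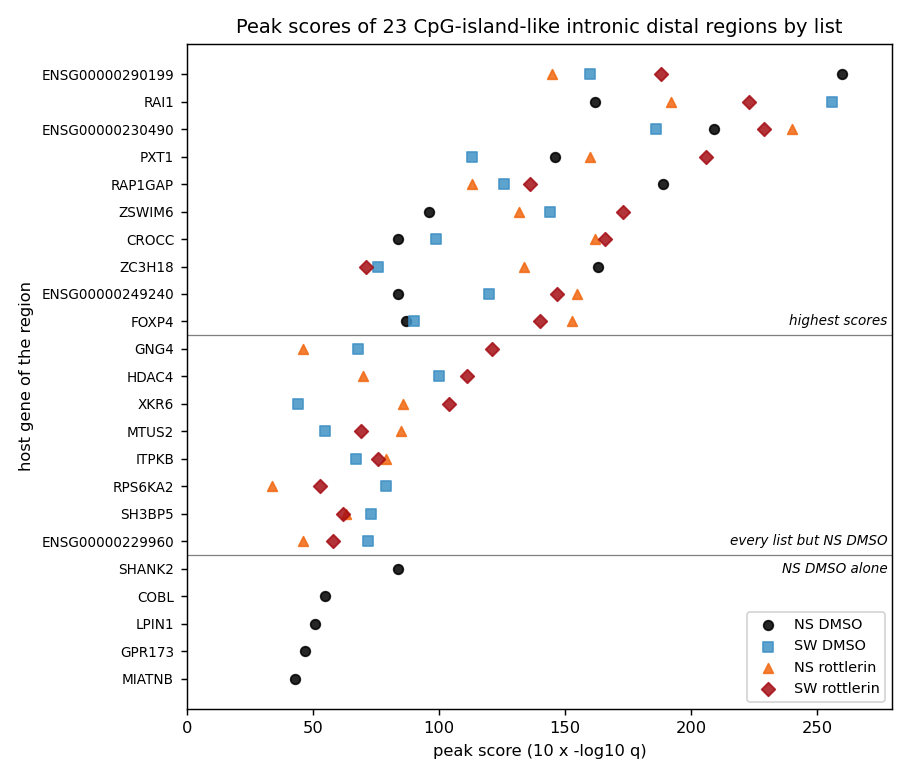
Peak score (x axis, 10 times −log10 q) in each list for 23 CpG-island-like intronic distal regions, named by host gene and grouped into the 10 highest scores, the 8 highest with a peak in every list but NS DMSO, and the 5 highest with a peak in NS DMSO alone. A missing symbol means that no peak was called. By the highest score of each region, the first set lies between 153 and 260, the set without NS DMSO between 72 and 121, and that of NS DMSO alone between 43 and 84.

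A peak in every list but NS DMSO was found at 15 of the 140 island-like regions (10.7%, 6.60 to 16.9), against 7.08% of all regions and 7.39% of CpG-poor intronic regions, a difference from the latter of 3.32 points (-0.82 to 9.55) that included 0. GNG4 on chromosome 1 (235805148 to 235806021) had scores of 68, 46 and 121 in SW DMSO, NS rottlerin and SW rottlerin, and HDAC4 on chromosome 2 (240196923 to 240197211) had 100, 70 and 111. XKR6, a scramblase family gene, had 44, 86 and 104. In all 3 the SW rottlerin list, the longest, gave the highest score. MTUS2, a microtubule-associated protein, had 55, 85 and 69, and ITPKB, an inositol trisphosphate kinase that T cell development needs, had 67, 79 and 76. RPS6KA2, a ribosomal S6 kinase, had 79, 34 and 53, SH3BP5, which binds the kinase BTK, had 73, 63 and 62, and the lncRNA gene ENSG00000229960 had 72, 46 and 58. The RPS6KA2 window held none of the sequences searched.

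A peak in 1 or 2 of the other lists without NS DMSO was found at 38 island-like regions (27.1%, against 31.0% of all regions) and 17 island-like regions (12.1%, against 15.5%). The 38 divided by list as 25 for SW rottlerin alone, 7 for NS rottlerin alone and 6 for SW DMSO alone, or 65.8%, 18.4% and 15.8% of them. Over all regions in 1 other list the shares were 58.8%, 27.2% and 14.0%.

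The NS DMSO list alone held 12 island-like regions (8.57%, 4.97 to 14.4), against 7.83% of all regions. SHANK2 had the highest score of these, 84. COBL, an actin nucleator, had 55, LPIN1, a phosphatidate phosphatase, had 51, GPR173, an orphan receptor gene, had 47, and the lncRNA gene MIATNB had 43. None of the 5 was among the 10 highest island-like regions, which were chosen by score.

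Where both lists had a peak, fold enrichment was compared with NS DMSO. The median ratio of SW DMSO to NS DMSO over 44 island-like regions was 1.01 (0.753 to 1.41), of NS rottlerin over 48 island-like regions 1.04 (0.658 to 1.45), and of SW rottlerin over 56 island-like regions 1.08 (0.712 to 1.49). Over all regions the medians were 0.98, 1.04 and 1.06. No island-like region was higher by 1.5-fold or more in any list, and 1 was lower, in the NS rottlerin list. The shares of all regions past this limit were 1.67% higher and 2.18% lower for SW DMSO, 3.19% and 1.38% for NS rottlerin, and 4.5% and 1.54% for SW rottlerin. The island-like region that was lower was the region in the lncRNA gene ENSG00000226281, with a fold enrichment of 4.61 in NS DMSO, 3.03 in NS rottlerin and 3.64 in SW rottlerin. The highest ratios were those of LRRFIP1, a binder of nucleic acids, which had 3.7 in NS DMSO, 5.23 in SW DMSO, 4.21 in NS rottlerin and 5.49 in SW rottlerin, and of IGF1R, the receptor of insulin-like growth factor 1, for NS rottlerin. The latter region of IGF1R had 3.12, 3.38, 4.53 and 4.56.

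Short sequences that transcription factors recognise were sought on both strands of the central 300 bp. A match describes the sequence and shows no binding. Sequences that contain CG or are rich in G and C partly follow from the rule. GGGCGG, the GC box of SP and KLF factors, was in 79 of 140 island-like regions (56.4%, 48.2 to 64.4), 5.48% of CpG-poor intronic regions, 77.2% of island-like regions at TSSs and 22.6% of all regions. The island-like regions at TSSs exceeded the intronic ones, by 20.8 points (12.8 to 29.1). The sequence of EGR factors, GCGTGGGNG, was in 8 island-like regions (5.71%), 0.812% of CpG-poor regions, a difference of 4.9 points (2.11 to 10.1), and 1.78% of all regions. It was in 4.75% of island-like regions at TSSs, a difference of 0.962 points (-1.87 to 6.14), and 4.31% of intergenic distal island-like regions. GCATGCGC of NRF1 was in 4 island-like regions (2.86%), 6.52% of island-like regions at TSSs and 1.57% of all regions, and TGACGTCA, the cyclic AMP response element, in 3 island-like regions (2.14%), 3.64% at TSSs and 0.985% of all regions. TCGCGAGA, a promoter sequence of Kaiso, and AAAGGTCA of NR4A receptors were in 0 island-like regions, which allows shares up to 2.67%, against 0.558% and 1.45% of all regions.

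The sequences of RUNX, GATA, AP1 and NFAT factors were less frequent in the island-like regions than in CpG-poor introns, a set of 4 put together after the values were seen. TGTGGT of RUNX factors was in 25 island-like regions (17.9%, 12.4 to 25.0) and 41.8% of CpG-poor regions, a difference of -23.9 points (-29.4 to -16.7), with 32.8% of all regions. AGATAA of GATA factors was in 10 island-like regions (7.14%) and 27.8% of CpG-poor regions, a difference of -20.6 points (-23.9 to -15.1), with 21.0% of all regions. TGANTCA of AP1, the FOS and JUN dimer, was in 16 island-like regions (11.4%, 7.16 to 17.8) and 22.4% of CpG-poor regions, a difference of -10.9 points (-15.3 to -4.57), with 17.9% of all regions. Matches with C or G at N were not counted apart from those with A or T there. TGGAAA of NFAT was in 30 island-like regions (21.4%) and 32.3% of CpG-poor regions, a difference of -10.9 points (-16.9 to -3.31), with 27.9% of all regions. None of these 4 sequences holds CG, and the windows of the 2 classes differ in base composition.

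Set against the island-like regions at TSSs, the direction was the reverse. The intronic island-like regions exceeded them by 9.5 points for RUNX (4.01 to 16.7), 3.9 for GATA (0.654 to 9.42), 8.11 for AP1 (3.82 to 14.4) and 8.52 for NFAT (2.49 to 16.1). They exceeded the intergenic distal island-like regions by 7.81 points for RUNX (0.524 to 15.7). The differences for GATA, AP1 and NFAT were 0.923 (-4.31 to 6.99), 3.29 (-2.91 to 10.3) and 1.81 points (-6.6 to 10.7). The intervals for GATA, AP1 and NFAT included 0. CNGGAAG of ETS factors was in 44 intronic island-like regions (31.4%, 24.3 to 39.5), 27.6% of CpG-poor regions, 42.3% of island-like regions at TSSs and 32.1% of all regions. For ETS the difference from CpG-poor regions was 3.87 points (-3.29 to 12.0). The NFKB sequence was in 7 island-like regions (5.0%), 2.9% of CpG-poor regions and 4.33% of all regions, and its difference from the CpG-poor regions was 2.1 points (-0.474 to 7.07). ATCAAAG of TCF and LEF factors was in 6 island-like regions (4.29%), against 6.61% of all regions, and AAGATGGC of YY1 in 1 island-like region, against 2.17% of all regions.

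Of the E-boxes, which basic helix-loop-helix and ZEB factors recognise, CACCTG was in 43 island-like regions (30.7%, 23.7 to 38.8), 20.5% of CpG-poor regions, 18.6% of island-like regions at TSSs and 21.4% of all regions. The island-like regions exceeded the CpG-poor regions by 10.2 points (3.15 to 18.3) and the island-like regions at TSSs by 12.1 points (5.04 to 20.3). From intergenic distal island-like regions, at 22.5%, the difference was 8.23 points (-1.11 to 17.8), whose interval included 0. The E-box of MYC, CACGTG, was in 15 island-like regions (10.7%), 3.94% of CpG-poor regions, 10.3% of island-like regions at TSSs and 5.67% of all regions. The difference from the island-like regions at TSSs was 0.391 points (-3.78 to 6.64). From intergenic distal island-like regions, at 5.74%, it was 4.97 points (-0.782 to 11.6). Both of these intervals for CACGTG included 0. CAGCTG, the E-box of E proteins, was in 19 island-like regions (13.6%), against 17.1% of all regions.

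**Figure D5:**
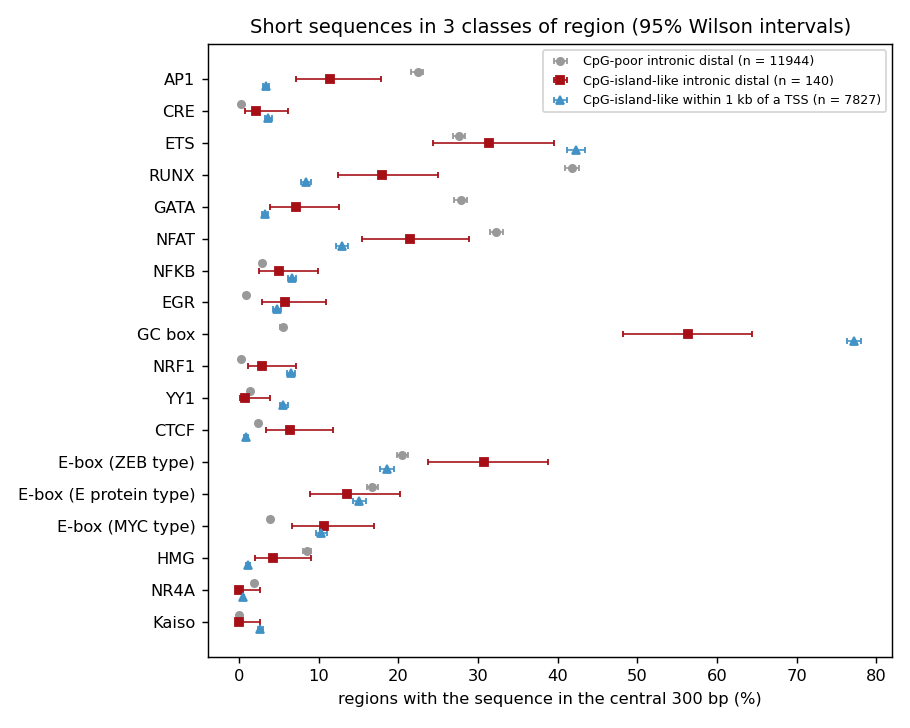
Share of regions (x axis, %) with each of 18 sequences in the central 300 bp for CpG-poor intronic distal regions, CpG-island-like intronic distal regions and CpG-island-like regions within 1 kb of a TSS, with 95% Wilson intervals. The E-box of ZEB type is CACCTG, that of E protein type CAGCTG and that of MYC type CACGTG. For RUNX, GATA, AP1 and NFAT the intronic island-like regions lie between the other classes, at 17.9%, 7.14%, 11.4% and 21.4%.

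The sequence of CTCF, the insulator protein whose binding methylation of its site can block, was in 9 of 140 island-like regions (6.43%, 3.42 to 11.8), 2.36% of CpG-poor intronic regions, 0.83% of island-like regions at TSSs, 10.0% of intergenic distal island-like regions and 2.38% of all regions. The island-like regions exceeded the CpG-poor regions by 4.07 points (1.04 to 9.41) and the island-like regions at TSSs by 5.6 points (2.58 to 10.9). Both differences depended on the SW rottlerin list. Without it 3 of 111 island-like regions (2.7%, 0.923 to 7.65) held the sequence, and the differences were 0.248 points (-1.56 to 5.2) and 1.78 points (-0.0171 to 6.73), whose intervals included 0. All 9 had a peak in the SW rottlerin list, and 6 had a peak in that list alone. These 6 of 25 island-like regions (24.0%, 11.5 to 43.4) lay in DLGAP3, BCL10-AS1, ENSG00000289728, CACNA1C, MEAK7 and MTSS1, with scores of 49, 78, 53, 45, 44 and 25. Of all regions with a peak in that list alone 2.53% held the sequence, and of CpG-poor intronic ones 2.3%. Of intergenic distal island-like regions in that list alone it was in 4 of 43 (9.3%, 3.68 to 21.6). The other 3 intronic island-like regions with the sequence were in MDS2, ERCC1 and EFNA5. No intronic island-like region with a peak in all 4 lists held the sequence (0 of 38, up to 9.18%). Among regions in all 4 lists, 6.76% of intergenic distal island-like regions (5 of 74) and 1.3% of all regions held it. The counts are small, and the list is a single library.

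The AP1 sequence was in 11 of 70 island-like regions with no NS DMSO peak (15.7%, 9.01 to 26.0) and 5 of 70 with one (7.14%, 3.09 to 15.7), a difference of 8.57 points (-2.27 to 19.6) that included 0. Among the 16 were LRRFIP1 with a score of 128, HDAC4 with 111, ZMIZ1-AS1 with 108 and SH3BP5 with 73. For CTCF the difference was 7.14 points (-1.48 to 16.6), with 7 of 70 and 2 of 70. For none of the 18 sequences did the interval of this difference exclude 0.

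Tandem repeats were windows that matched themselves at 80% of bases or more when shifted by 8 to 100 bases. They were found at 2 of 140 island-like regions (1.43%, 0.393 to 5.06), in NTSR1 with a unit of 75 bases and in PTPRN2 with a unit of 57 bases. The counts were 0 of the 11944 CpG-poor regions, 0 of 209 intergenic distal island-like regions and 2 of 7827 island-like regions at TSSs. The difference from the intergenic regions was 1.43 points (-0.652 to 5.06), whose interval included 0.

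The island-like regions lay near chromosome ends more often than the CpG-poor intronic regions and the island-like regions at TSSs. Within 5 Mb of a chromosome end were 39 of 140 (27.9%, 21.1 to 35.8), against 6.67% of CpG-poor intronic regions, 13.6% of island-like regions at TSSs and 9.35% of all regions. The differences were 21.2 points (14.4 to 29.1) from the CpG-poor regions and 14.2 points (7.43 to 22.2) from the island-like regions at TSSs, and 6.8 points (-2.25 to 16.2) from the 21.1% of intergenic distal island-like regions. The share was 30% of island-like regions with an NS DMSO peak and 25.7% of those without. By chromosome, island-like regions made up 4.08% of the intronic distal regions on X (8 of 196), 4.02% on 19 (7 of 174) and 2.8% on 22 (4 of 143), and 0.444% on 4 (2 of 450), with 1.16% over all chromosomes. In the genome as a whole, 24307 of 3749958 adjoining windows of 300 bp in intronic distal sequence met the composition limits (0.648%).

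The 140 island-like regions lay in 133 host genes, of which 127 held 1 island-like region, 5 held 2 (CCDC88C, ENSG00000291336, IGF1R, MDS2 and XKR6) and 1 held 3. The hosts were protein-coding at 107 island-like regions (76.4%) and lncRNA genes at 29 (20.7%), against 81.7% and 17.7% of CpG-poor regions. Of the 114 island-like regions that lay in an intron of the canonical transcript, 38 (33.3%, 25.3 to 42.4) were in the first intron, against 30.1% of CpG-poor regions, a difference of 3.23 points (-4.81 to 12.3). The other 26 lay outside the introns of that transcript. Among these 26 were all 3 regions in BCOR and those in PRKCH, CROCC and LPIN1. The median island-like region lay 54.7% of the way through its host gene, and the median CpG-poor region 46.5%.

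BCOR, on chromosome X, held 3 island-like regions among its 7 intronic distal regions. The first (40012741 to 40012999) had scores of 27 in NS rottlerin and 61 in SW rottlerin, the second (39968259 to 39968454) 45 in SW rottlerin, and the third (39965725 to 39966022) 25 in SW rottlerin. None of the 3 had a peak in the NS DMSO list, and 53.5% of all merged regions also had none. IGF1R held 2 island-like regions with peaks in all 4 lists, with scores of 59, 60, 70 and 96 at one and 20, 28, 72 and 74 at the other, in the order NS DMSO, SW DMSO, NS rottlerin and SW rottlerin. In both, NS DMSO was the lowest.

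Genes of T cell signalling and regulation were looked up by list. Of 168 genes in 4 lists, 84 held an intronic distal region and 4 held an island-like region, which made 4 of their 404 intronic distal regions (0.99%, against 1.16% of all). By gene, 4 of 84 is 4.76% (1.87 to 11.6), against 2.58% of the 4997 other host genes of an intronic distal region, a difference of 2.18 points (-0.753 to 9.04) that included 0. Of 48 genes of T cell receptor and protein kinase C signalling it was PRKCH, the eta isoform of protein kinase C, with scores of 49 in NS DMSO, 50 in NS rottlerin and 37 in SW rottlerin on chromosome 14 (61736394 to 61736597). Of 30 activation-induced transcription factors it was NFATC1, with 39 in NS rottlerin and 43 in SW rottlerin on chromosome 18 (77165821 to 77166046). Of 38 transcription factors of the T lineage and T leukaemia it was CBFB, the partner of RUNX factors, with 28 in NS rottlerin alone. Of 52 regulators of DNA methylation and chromatin it was HDAC4, described above. None of these 4 but HDAC4 had a score over 50, and none was among the 10 highest.

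The regions nearest to each limit of the rule are given as a description. Just inside the GC limit lay regions in ARHGEF10 and PRKCH, both at 50.3%, and just outside it regions in ENSG00000286192 and LINC00910, both at 50.0%. Just inside the limit of the CpG ratio lay regions in NFATC1 and RPTOR, both at 0.601, and just outside it regions in FBLN2 at 0.5975 and TMPRSS13 at 0.5945. Just inside the distance limit lay MMRN2 at 5021 bp and NTSR1 at 5082 bp from a TSS, and just outside it ENSG00000282278 at 4963 bp and CA5A at 4844 bp. The scores of the 6 inside ran from 28 to 113 and of the 6 outside from 28 to 73.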

How the data were processed

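The series holds 9 FAIRE-seq samples of Jurkat cells, 1 of them total input. Peak lists of 4 samples were used, and 5 samples were not analysed here. By the methods and the submitters' processing notes, the authors used CutAdapt to trim reads, Bowtie2 to align them to Hg19, Picard to drop duplicates and MACS2 in its broad mode to find peaks over total input, which the methods describe for the DMSO samples. Tool versions are not given in the sources used here. The deposited lists hold a score, a ratio (fold enrichment over input) and −log10 values of p and q. Depth is unknown from them. The labels give 4 h of stimulation and the methods 2 h.

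Merging all peaks of the 4 lists gave 40731 regions. The methods state that same total for pooled DMSO samples, which is why the labels of the lists are in doubt. On other contigs lay 28 regions, which were left out, and the methods removed the same number. Peaks with a q-value above 0.05 were kept. The reference was GRCh37, which is the build of Hg19, with GENCODE release 44. Promoter sequences of RefSeq (GRCh38.p14) served only for matching gene starts by sequence. Shares have 95% Wilson intervals and differences 95% Newcombe intervals, which cover counting error only. With 1 library per list no test between lists was made. Regions named were the 10 with the highest scores, the 8 highest with a peak in every list but NS DMSO, the 5 highest in NS DMSO alone, those of genes with 3 or more, those of the gene lists, and the 2 on either side of each limit. Other names are said to be chosen by their values or belong to a count. The regions, gene lists and sequences searched were chosen with earlier results of these data known. The sequence of 1 region due to be shown is not reported here. Merging, sequence search and intervals were tested on simulated data. Scripts ran under Python 3.11.15 with pandas 2.3.3 and numpy 2.4.6. Sequence was read with pysam 0.24.0 and samtools 1.23.1, quantiles came from scipy 1.17.1, and plots from matplotlib 3.10.9.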

Additional observations from a re-analysis of the deposited data

How the results depend on the processing

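No paired analysis was possible because every list comes from a single library. The number of regions, 140 as reported, was 217 with a TSS distance over 2 kb, 66 with a distance over 10 kb, 87 with limits of 55% GC and a ratio of 0.65, and 68 with the 50% of each list that scored highest. The share without an NS DMSO peak, 50.0% as reported, was 36.8% when every list was reduced to the 18977 peaks of the shortest and 39.6% without the SW rottlerin list, both below its 95% interval. Both alternatives lessen the weight of the longest list. The share with a peak in all 4 lists, 27.1% as reported, was 18.2% with a TSS distance over 10 kb. The difference from CpG-poor intronic regions in the share without an NS DMSO peak, -12.5 points, ran from -20.3 to -5.34 over the alternatives tried and was negative in each. Its interval included 0 with a TSS distance over 10 kb and excluded 0 under the others. Among the other results, the median score was 85 when 50% of each list was kept, and the share with a CTCF sequence was 2.7% without the SW rottlerin list. Of 116 recomputed values 107 stayed within the interval of the reported value or, for the number of regions, within 1.5 times. Leaving out regions with a RefSeq gene start, an alternative chosen after seeing the data, gave 135 regions and a share without an NS DMSO peak of 49.6%. The values are limited by 140 regions, by 1 library per list and by unknown depth.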
